A study of Mus musculus with 108 samples.

Results

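The circadian clock genes examined here were Arntl, Clock, Per1, Per2, Per3, Cry1, Cry2, Nr1d1, Nr1d2 and Dbp, 10 of the 26089 genes with a curated RefSeq transcript. They were chosen by name, as the core oscillator and its best known direct target, but with earlier results of these data known. For each gene, the chromatin state was read at the transcription start site (TSS), in the bins within 2 kb of it, along the gene body and in the 50 kb on either side.

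The circadian clock is a feedback loop of transcription that runs in nearly every cell and takes about a day. Arntl (BMAL1) and Clock encode the activators, which bind E-boxes as a heterodimer and drive the Per, Cry, Nr1d and Dbp genes. The PER and CRY proteins then inhibit the activators, while Nr1d1 and Nr1d2 (REV-ERB alpha and beta) repress Arntl through ROR elements and Dbp acts through D-boxes. In liver, the loop is tied to feeding time and sets the rhythm of many metabolic genes, and active histone marks at clock genes are known to vary over the day.

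Livers came from C57BL/6 female mice, and chromatin was extracted from formalin-fixed, paraffin-embedded tissue and profiled by ChIP-seq for H3K4me3, H3K27me3, H3K27ac and H3K4me1. SD 3m comprised 8 mice of 3 months on standard diet (30 libraries), SD 12m comprised 8 mice of 12 months on standard diet (29 libraries), and CR 12m comprised 9 mice of 12 months on 30% caloric restriction since 3 months of age (29 libraries). The libraries of each group and mark were merged by the authors, so each group has 1 segmentation of the genome, in bins of 200 bp, into 8 states, and no difference could be set against the spread between mice. The read depth behind a label is unknown, and the hour of the day at which livers were collected is not given in the sources used here. In merged whole livers, a mark present in fewer cells and a weaker mark in each cell cannot be told apart.

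State 1 (active TSS) carries H3K4me3 and H3K27ac, and state 2 (flanking TSS) carries H3K4me1 in addition. States 3 (active enhancer 1) and 4 (active enhancer 2, with weaker H3K27ac) and state 5 (poised enhancer, mainly H3K4me1) are the enhancer states. State 6 (repressed Polycomb) carries H3K27me3, state 7 (age-related) weak H3K4me3 and minimal H3K27me3, and state 8 (quiescent) none of the marks. The TSS bin was in one of states 1 to 5 for 8 of 8 hepatocyte markers in each group, and for 0 of 5 neuron markers in each group. Of 5 markers each for other liver cell types, this number in SD 3m, SD 12m and CR 12m was 2, 1 and 1 for Kupffer cells, 3, 3 and 5 for sinusoidal endothelium, 2, 2 and 1 for stellate cells, 2, 3 and 4 for cholangiocytes, and 3, 3 and 2 for lymphocytes. The part of these cell types in the results was not tested.

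Sequences are shown for the starts at which the state labels are compared with clock motifs below, in the direction of transcription, from RefSeq on GRCm38.p6 (mm10). Capitals mark an E-box (CACGTG), the E-box variant CACGTT (in either orientation) or a D-box (TTATGTAA). The stretches before Arntl (chr7:113207215-113207421, plus strand) and Cry1 (chr10:85185055-85185304, minus strand) contrast a start whose label differed between diets with one that kept its label. Those before Per1 (chr11:69098771-69098800, plus strand) and Nr1d1 (chr11:98775378-98775627, minus strand) lay where state 2 gave way to state 3 at 12 months, and that before Per3 (chr4:151044707-151044852, minus strand) holds the nearer of its D-boxes. The last pair are bins in intron 1 of Nr1d1 (chr11:98773801-98774000, minus strand) and of Nr1d2 (chr14:18238401-18238600, minus strand), which hold 2 E-boxes each.
Arntl: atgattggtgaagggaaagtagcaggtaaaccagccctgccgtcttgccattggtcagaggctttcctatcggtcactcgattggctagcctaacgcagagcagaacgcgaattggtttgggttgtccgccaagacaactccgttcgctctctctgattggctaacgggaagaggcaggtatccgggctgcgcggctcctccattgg
Cry1: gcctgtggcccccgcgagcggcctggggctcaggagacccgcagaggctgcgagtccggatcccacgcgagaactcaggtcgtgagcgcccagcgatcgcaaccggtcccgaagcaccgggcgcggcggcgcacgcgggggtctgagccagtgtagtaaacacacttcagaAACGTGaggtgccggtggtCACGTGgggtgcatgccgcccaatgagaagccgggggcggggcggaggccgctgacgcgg
Per1: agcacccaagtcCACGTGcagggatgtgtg
Nr1d1: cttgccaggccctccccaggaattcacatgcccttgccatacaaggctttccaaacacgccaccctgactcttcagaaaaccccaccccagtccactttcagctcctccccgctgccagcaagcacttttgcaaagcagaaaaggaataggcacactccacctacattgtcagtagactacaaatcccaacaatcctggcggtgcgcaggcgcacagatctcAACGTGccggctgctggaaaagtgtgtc
Per3: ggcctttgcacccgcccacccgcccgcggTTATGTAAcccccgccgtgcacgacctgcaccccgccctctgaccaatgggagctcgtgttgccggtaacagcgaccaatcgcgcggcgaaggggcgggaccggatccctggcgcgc
Nr1d1 intron 1: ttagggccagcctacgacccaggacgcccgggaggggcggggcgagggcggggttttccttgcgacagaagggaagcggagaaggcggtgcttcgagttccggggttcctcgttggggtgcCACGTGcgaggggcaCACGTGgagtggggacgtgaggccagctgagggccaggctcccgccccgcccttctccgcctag
Nr1d2 intron 1: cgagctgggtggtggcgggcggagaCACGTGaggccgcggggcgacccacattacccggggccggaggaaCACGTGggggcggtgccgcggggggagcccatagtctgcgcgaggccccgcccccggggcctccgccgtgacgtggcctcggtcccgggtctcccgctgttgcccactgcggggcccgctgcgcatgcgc

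At 3 months the starts of the clock genes were in active states, 7 of them in state 1 and 2 in state 2, with Arntl in state 4. Over all genes, the shares of TSS bins with these labels in SD 3m were 30.2% for state 1, 9.86% for state 2 and 5.39% for state 4. At 12 months on standard diet, the TSS bin had another state than in SD 3m at 7 of 10 clock genes (Arntl, Per1, Per2, Cry2, Nr1d1, Nr1d2 and Dbp), against 32.6% of all genes. In CR 12m it was another state than in SD 3m at 5 of 10 (Per1, Per2, Cry2, Nr1d1 and Nr1d2), against 34.7% of all genes. Between the diets at 12 months, it differed at 2 of 10 (Arntl and Dbp), against 26.7% of all genes. Both comparisons with SD 3m rest on the same SD 3m segmentation. When a change was counted only if the SD 3m state was absent from the 3 bins around the start, 4 of 10 clock genes were left in SD 12m (Arntl, Per2, Cry2 and Dbp), against 26.5% of all genes, and 2 of 10 in CR 12m (Per2 and Cry2), against 28.2%. At Per1, Nr1d1 and Nr1d2 the SD 3m state was thus still present in a bin next to the start in both 12-month groups.

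Of the 9 clock genes with the start in a TSS state in SD 3m, 7 encode repressors, and 5 of these had a start that left the TSS states at 12 months. Per1 encodes an inhibitor of the activator complex, and its TSS bin was in state 2 in SD 3m and in state 3 in SD 12m and CR 12m. Per2, its paralog, was in state 1 and then in state 3 in both 12-month groups. Cry2, which encodes the partner of PER proteins in the inhibitory complex, had state 1 in SD 3m and likewise state 3 in both 12-month groups. For Nr1d1 the labels were 2, 3 and 3 in SD 3m, SD 12m and CR 12m, and for Nr1d2 they were 1, 4 and 4. The TSS bin of all 5 thus moved from a TSS state to an active enhancer state, with the same label in both diets. The bin just after it was still in state 1 or 2 at all 5 in both 12-month groups.

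Of the 9 clock genes whose TSS bin was in state 1 or 2 in SD 3m, these 5 left both states in SD 12m, against 16.5% of the 10449 genes that started there. In CR 12m the same 5 of 9 had left, against 25.9% of these genes. A TSS bin that was the same in SD 12m and CR 12m and another in SD 3m was found at 17.9% of all genes, and at these 5 of 10 clock genes. The change from state 1 to state 3 in both groups, shown by Per2 and Cry2, was shared with 123 genes in all, or 0.471%. The labels 2, 3 and 3 of Per1 and Nr1d1 were found at 482 genes (1.85%), and the labels 1, 4 and 4 of Nr1d2 at 430 genes (1.65%).

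Clock, Per3 and Cry1 kept state 1 at the TSS in all 3 groups, as did 5411 genes (20.7%). Arntl, the activator gene, was in state 4 in SD 3m, in state 1 in SD 12m and again in state 4 in CR 12m, a pattern of 45 genes (0.172%). Dbp, a D-box activator and output of the loop, was in state 1 in SD 3m, in state 2 in SD 12m and in state 1 in CR 12m, a pattern of 114 genes (0.437%). A TSS bin with the same label in SD 3m and CR 12m and another in SD 12m was thus found at 2 of 10 clock genes, against 9.89% of all genes.

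**Figure D1:**
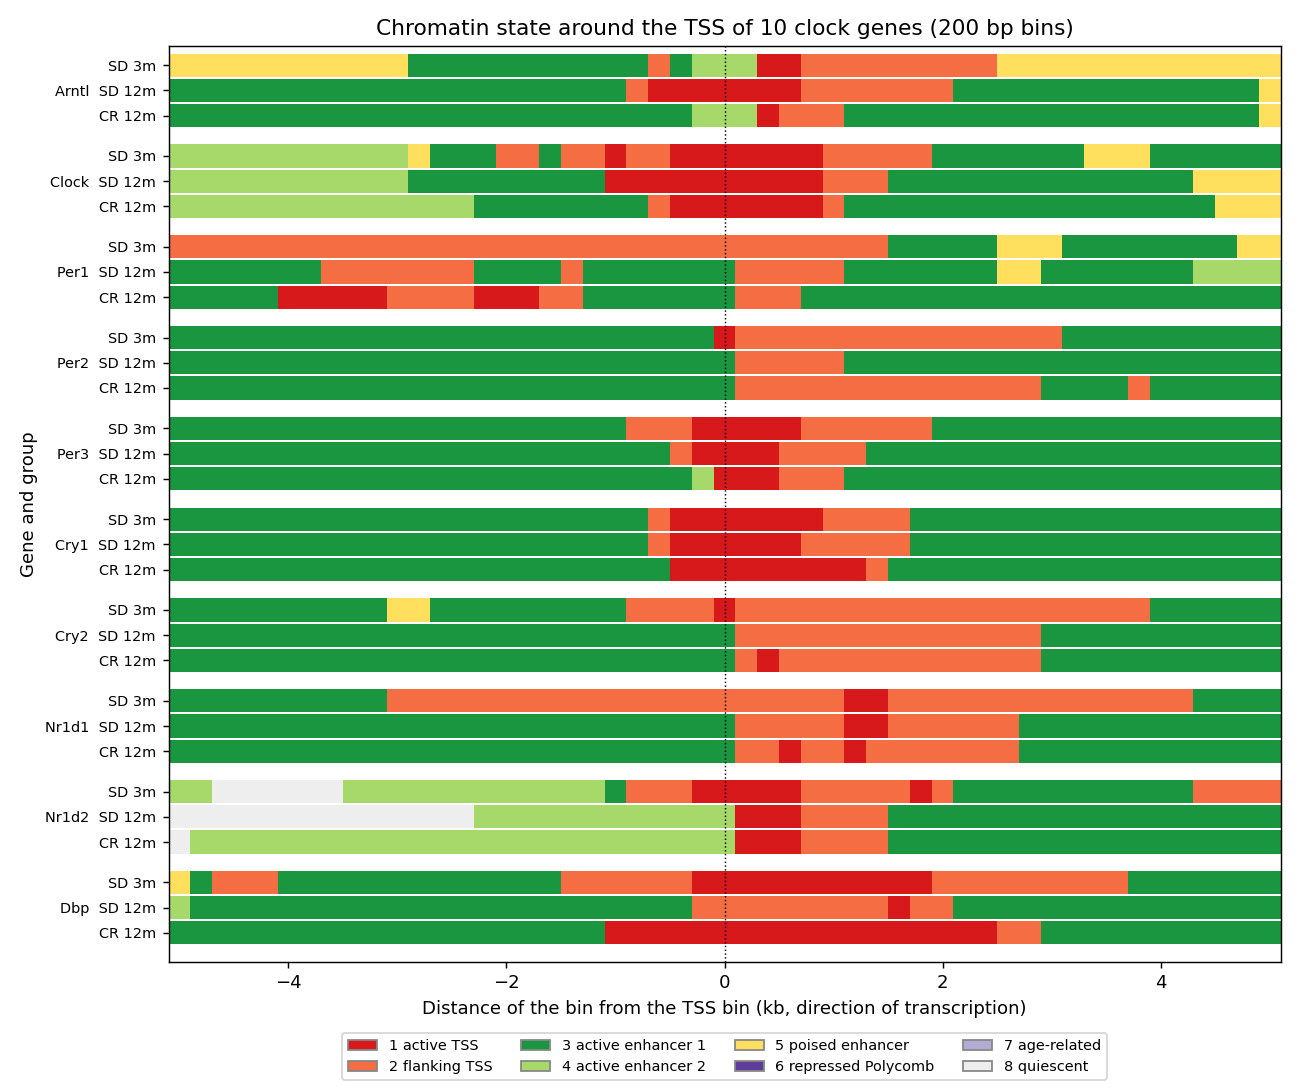
State of each 200 bp bin (colour) within 5 kb of the TSS bin (horizontal axis, kb in the direction of transcription) of the 10 clock genes, with a row for each group. The TSS bin of Per1, Per2, Cry2, Nr1d1 and Nr1d2 is in state 1 or 2 in SD 3m and in state 3 or 4 in SD 12m and CR 12m, while the bins just after it stay in states 1 and 2.

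Within 2 kb of the start, the TSS states covered fewer bins at 12 months at most clock genes. Of the 210 bins of the 10 windows (21 for each gene), 72.9% were in state 1 or 2 in SD 3m (66.5 to 78.4), and 47.1% (40.5 to 53.9) and 42.4% (35.9 to 49.1) in SD 12m and CR 12m. Ranges in parentheses are Wilson 95% intervals, which cover counting error over bins and not the spread between mice. Over the genes with the TSS bin in state 1 or 2 in SD 3m, these shares were 66.6%, 42.9% and 37.9%, and over all genes 28.9%, 18.7% and 16.4%. State 3 took up 23.3% of the bins of the clock genes in SD 3m, and 47.6% and 50.5% in SD 12m and CR 12m. No bin in the windows of the clock genes was in states 5 to 8 in any group. Such bins were also few over the genes with the TSS bin in state 1 or 2 in SD 3m. There, states 5, 6, 7 and 8 held 9388, 2068, 1388 and 3104 of 219429 bins in SD 3m.

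Among the repressors, Nr1d1 had all 21 bins in states 1 and 2 in SD 3m and 10 in each of SD 12m and CR 12m. Per1 had 18 such bins in SD 3m, and 6 and 7 in SD 12m and CR 12m. Both genes were thus lower at 12 months in either diet. Nr1d2 had 15, 7 and 7 bins, Cry2 had 15, 10 and 10, and Per3 had 14, 9 and 6, in the order SD 3m, SD 12m and CR 12m. Per2 had 11 bins in SD 3m, and 5 and 10 in SD 12m and CR 12m, so that the CR 12m window differed from SD 3m in 1 bin, the TSS bin itself. Cry1 stood at the other end, with 12, 12 and 10 bins.

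Of the activators, Clock had 19 bins in states 1 and 2 in SD 3m, and 13 and 9 in SD 12m and CR 12m. Arntl had 10 bins in SD 3m, and 15 and 4 in SD 12m and CR 12m, and was the only clock gene with more such bins in SD 12m than in SD 3m. Dbp had 18, 12 and 16 bins, with CR 12m between the standard diet groups.

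The share of bins with another label was close to that over all genes. In SD 12m, 38.1% of the bins of the clock genes (31.8 to 44.8) had another state than in SD 3m, against 37.2% over all genes. In CR 12m it was 37.6% (31.3 to 44.3) against 38.2%, and between CR 12m and SD 12m 25.2% (19.8 to 31.5) against 25.4%. Over the genes with the TSS bin in state 1 or 2 in SD 3m, these shares were 39%, 44.9% and 24.7%. Beside those genes, the pooled share of the clock genes was lower in CR 12m against SD 3m. In that comparison the genes ran from 1 of 21 bins (Per2) to 13 (Per1 and Nr1d1). The median there was 8 bins over the clock genes and 7 over all genes. Single clock genes spread widely around their pooled share. From SD 3m to SD 12m, Dbp changed in 16 of 21 bins, Per1 in 12 and Nr1d1 in 11, but Cry1 in 1.

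The longest unbroken stretch of states 1 and 2 that reached into the window was shorter in SD 12m than in SD 3m at 8 of 10 clock genes (all but Arntl and Cry1), against 89.4% of the 11342 genes with such a stretch in both groups. In CR 12m it was shorter than in SD 3m at 10 of 10, against 92.8% of 10771 genes. It was longer in CR 12m than in SD 12m at 3 of 10 (Per1, Per2 and Dbp), against 25.1% of 10682 genes. The median length over the clock genes was 3.3 kb in SD 3m, 2.4 kb in SD 12m and 2.3 kb in CR 12m, compared to 3, 1.8 and 1.6 kb over all genes with a stretch in that group.

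Per1 had the longest stretch in SD 3m, 13 kb from 11.4 kb before the TSS bin to 1.4 kb after it. In SD 12m its stretch was 1 kb long, from 0.2 to 1 kb after the TSS bin. In CR 12m the longest stretch of Per1 was 2.8 kb and lay from 4 to 1.4 kb before the TSS bin, so it did not cover the start. The length thus compares different places for this gene. The stretch in SD 3m reached over the start of Vamp2, 10.4 kb upstream, whose TSS bin was in states 1, 1 and 3 in SD 3m, SD 12m and CR 12m. The stretch of Clock also held the start of Gm7467, 84 bp upstream on the other strand, which was in state 1 in all groups.

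Nr1d1 had 7.4 kb in SD 3m and 2.6 kb in both 12-month groups. Dbp had 5.2 kb, 2.4 kb and 4 kb, and Cry2 had 4.8 kb, 2.8 kb and 2.8 kb, in SD 3m, SD 12m and CR 12m. The stretch of Arntl was 2.2 kb, 3 kb and 0.8 kb long in the same order, and covered the TSS bin in SD 12m only. The stretch of Per2 was 3.2 kb in SD 3m, 1 kb in SD 12m and 2.8 kb in CR 12m. The remaining genes ranged from 2.4 kb (Cry1) to 3.4 kb (Clock) in SD 3m, and from 1.2 kb (Per3) to 2 kb (Cry1) in CR 12m.

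A TSS bin outside states 1 and 2 places the edge of the stretch away from the start, and this edge was close to it. In SD 12m the stretch began after the TSS bin at 5 of 10 clock genes (Per1, Per2, Cry2, Nr1d1 and Nr1d2), at a distance of 0.2 kb in each, compared to 17.2% of all genes with a stretch. In CR 12m it began after the TSS bin at 5 of 10 as well, with Arntl (0.4 kb) in place of Per1, compared to 22.1%. In SD 3m this held for Arntl alone, compared to 12.3% of all genes with a stretch.

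**Figure D2:**
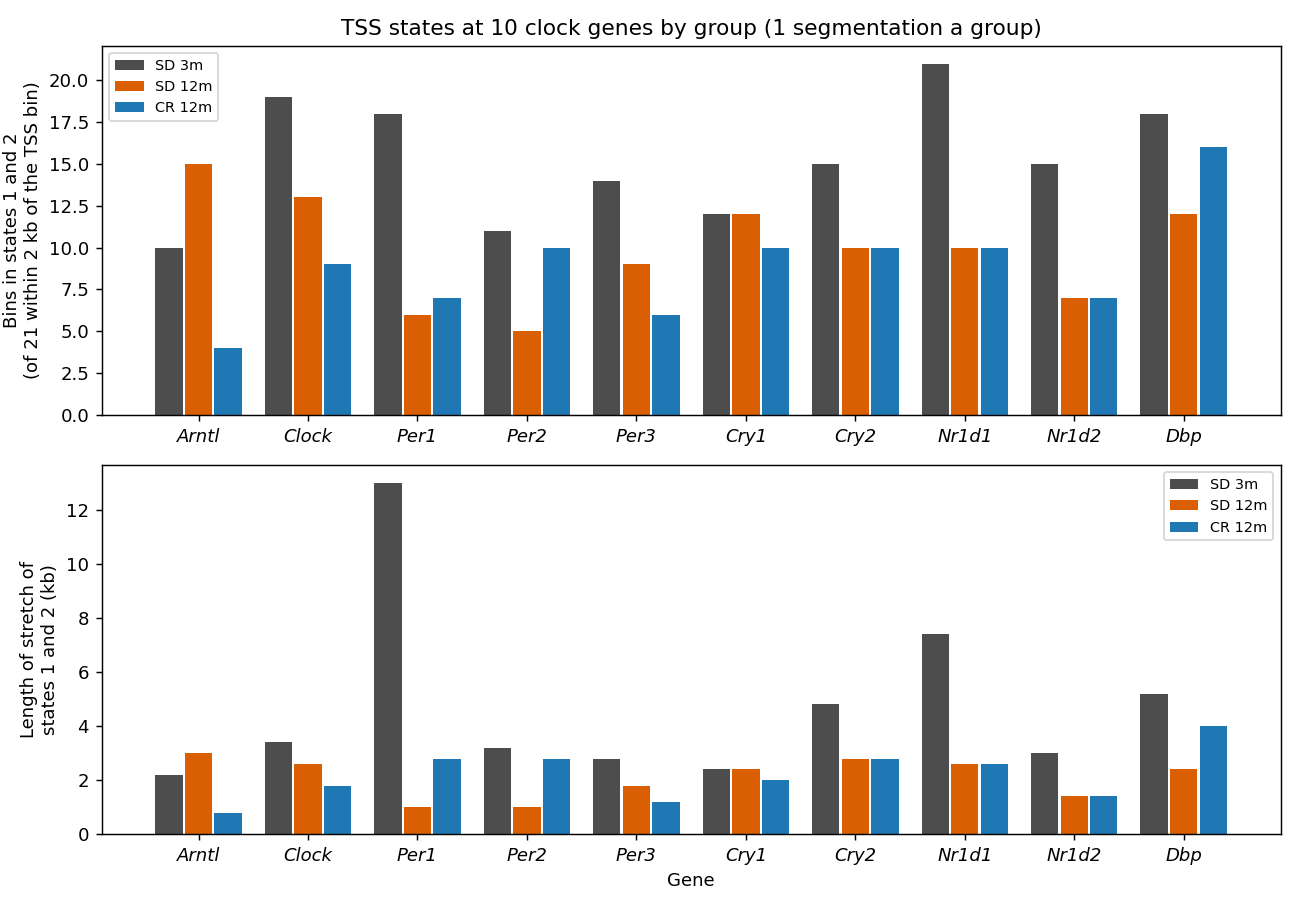
Bins in states 1 and 2 of the 21 within 2 kb of the TSS bin (top) and length in kb of the longest unbroken stretch of states 1 and 2 reaching into this window (bottom), for each clock gene, with a bar for each group and 1 segmentation a group. Arntl is highest in SD 12m in both panels, and Nr1d1 falls from 21 to 10 bins in both 12-month groups.

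E-boxes near the clock genes lay both in bins that changed label and in bins that kept it. The promoter sequences matched 9 of the 10 clock genes (all but Per2). In the 250 bases before the start, searched on both strands, the E-box CACGTG was found at Per1 and Cry1, and in 6.71% of 19069 promoters. The variant CACGTT was found at Cry1, Cry2 and Nr1d1, and in 4% of promoters. Per3 was the only clock gene with the D-box TTATGTAA, which it held at 2 places, compared to 0.834% of promoters. The letters TTACGTAA (0.115% of promoters), TAGGTCA (2.08%), TGGGTCA (3.03%) and TGACGTCA (2%) were found at none of the 9. No matches of different motifs overlapped at these genes. The median GC content of the 250 bases was 63.6% at the clock genes and 54.8% over all promoters, and the ratio of observed to expected CpG was 0.775 and 0.517.

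Within 2 kb of the TSS bin, 4 of the 9 clock genes held the E-box CACGTG, or 44.4%, compared to 44.2% of all genes. These were Per1 with 4 E-boxes, Nr1d1 with 4, Nr1d2 with 3 and Cry1 with 1. The 3 upstream E-boxes of Per1, at 1275, 529 and 166 bp before the start, were in bins of state 2 in SD 3m and of state 3 in SD 12m and CR 12m. The E-box of Nr1d1 at 323 bp before the start had the same labels.

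Other E-boxes kept a TSS state. The E-box of Cry1, 60 bp before the start, was in a bin of state 1 in all 3 groups. So were the E-boxes of Nr1d2 at 428, 531 and 576 bp after the start, although its TSS bin had left state 1. Those at 531 and 576 bp lay in the intron 1 bin shown above. At Nr1d1, the E-box at 1218 bp after the start was in state 1 in all groups. Those at 1498 and 1513 bp, in intron 1, were in state 1 in SD 3m and SD 12m and in state 2 in CR 12m. The fourth E-box of Per1, at 2014 bp after the start, was in state 3 in all groups.

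In the pooled bodies of the clock genes, most bins were enhancer chromatin, and poised enhancer bins were fewer at 12 months. Of 2143 bins, states 3 to 5 held 63.3% in SD 3m, and 66% and 66.2% in SD 12m and CR 12m, compared to 34.8%, 35.5% and 36.5% over all gene bodies. Single genes ranged in SD 3m from 24% (Dbp) to 92.6% (Per2), with 39% at Per3, 40.5% at Nr1d1 and 44.2% at Clock. Clock had 32% in SD 12m and 32.2% in CR 12m, below all gene bodies. In the pooled bodies, state 5 fell from 21.8% in SD 3m to 14.1% and 11% in SD 12m and CR 12m, and state 3 went from 27.6% to 37.3% and 41.2%. Over all gene bodies, state 5 was at 9.13%, 5.33% and 4.59%, and state 3 at 16.1%, 17.2% and 19.9%. No bin in the body of a clock gene was in state 6 or 7 in any group, while these covered 8.31% and 1.43% of all gene bodies in SD 3m. Of the 467 body bins labelled state 5 in SD 3m, SD 12m gave state 3 to 34.3% and CR 12m to 40.3%, compared to 17.7% and 28.4% over all gene bodies. In SD 3m, state 8 covered 29.9% of the clock gene bodies and 52.7% of all gene bodies. Bodies of genes with the TSS bin in state 1 or 2 were not compared. Whether such genes share these traits was therefore not tested.

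Arntl, the longest of the genes, had 47.4 kb of its body in state 5 in SD 3m, 27.8 kb in SD 12m and 19.8 kb in CR 12m. Its state 3 was 20.8 kb, 42.2 kb and 42.8 kb in the same order. Most of the decrease in state 5 over the clock genes therefore came from Arntl, whose 237, 139 and 99 bins compare with 467, 303 and 236 in all. Clock went the other way in SD 12m, with 66 bins in state 5 in SD 3m, and 93 and 66 in SD 12m and CR 12m. It had the quietest body at 12 months, with state 8 in 53.7% of its bins in SD 3m, and 66.3% and 66.5% in SD 12m and CR 12m.

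State 3 covered more of the Per and Cry bodies at 12 months in either diet. Per1 had state 3 in 38.2% of its bins in SD 3m, and 43.6% and 87.3% in SD 12m and CR 12m, and state 5 in 49.1%, 3.64% and 0%. Cry2 had state 3 in 38.8%, 65.8% and 87.5%, in the same order. Both genes were therefore highest in CR 12m. Per2 was the gene with the highest state 3 share at 3 months, 77%, and had 89.4% in SD 12m and 87.1% in CR 12m. Cry1 had 44.9%, 53.2% and 49.8%, and Per3, where state 8 covered 56.6% of the bins in SD 3m, had 8.29%, 9.76% and 15.6%.

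Nr1d1 and Dbp are short genes whose TSS states reached over much of the body. Nr1d1 had 22 of its 37 bins in states 1 and 2 in SD 3m and 13 in each 12-month group. Dbp had state 1 in 10 of 25 bins in SD 3m, in 1 bin in SD 12m and in 13 bins in CR 12m. Its state 2 covered 9, 10 and 2 bins and its state 3 covered 6, 14 and 10 bins in this order. Nr1d2 had state 5 in 47.2%, 33.5% and 35.2% of its bins.

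Relative to SD 3m, 24.7% of body bins had another state in SD 12m and 27.9% had one in CR 12m, compared to 29.4% and 26.9% over all gene bodies. Between the diets at 12 months it was 18.6%, compared to 22.5%. With the states merged into 5 classes, so that changes among enhancer states or among TSS states do not count, the first 2 shares were 10.4% and 11.7%, compared to 22.1% and 18.8% over all gene bodies. With all 8 states, the share was highest in SD 12m for Dbp (17 of 25 bins, 68%) and lowest for Per3 (25 of 205 bins, 12.2%). In CR 12m it was highest for Per1 (31 of 55 bins, 56.4%) and lowest for Per2 (28 of 217 bins, 12.9%).

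**Figure D3:**
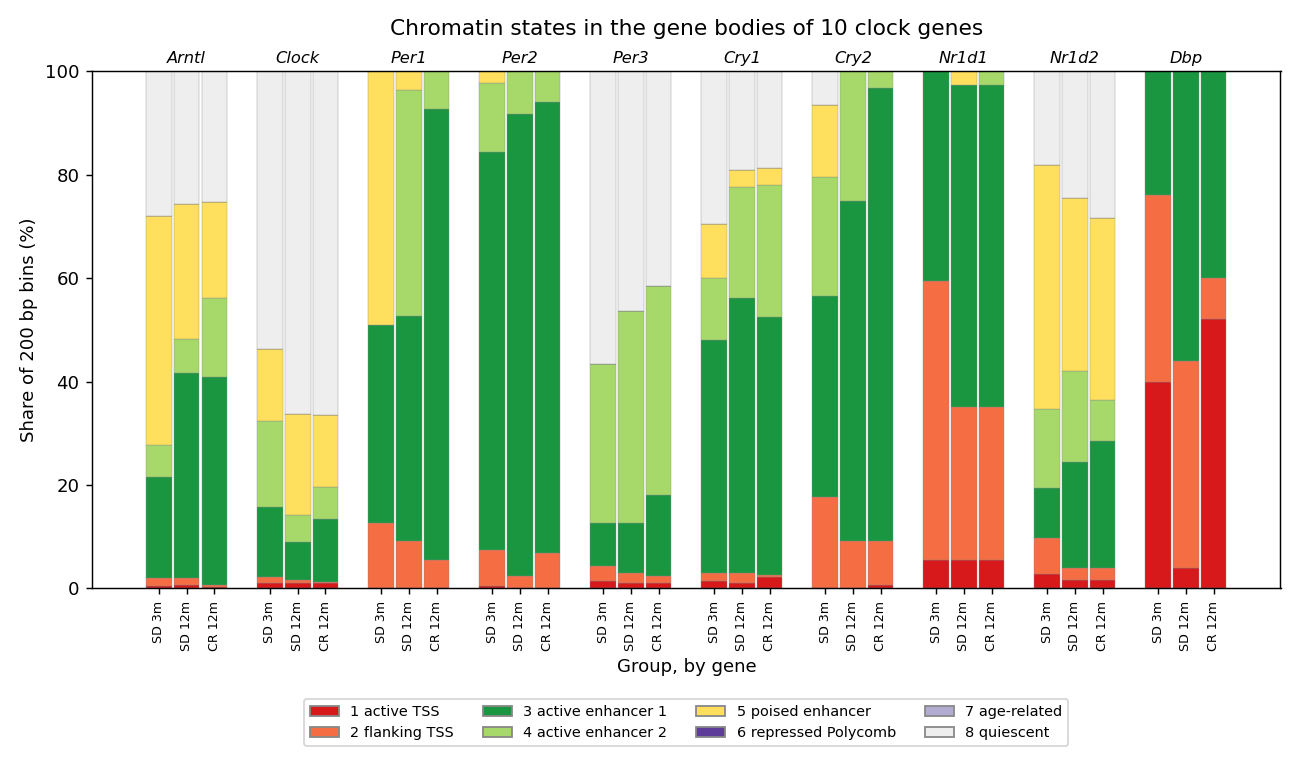
Share of the 200 bp bins of each gene body (vertical axis, %) in the 8 chromatin states (colours), with a bar for each group. The state 5 part of Arntl shrinks from 44.4% in SD 3m to 26% and 18.5% in SD 12m and CR 12m, and no bar holds state 6 or 7.

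Pooled over the flanks of the 10 clock genes, poised enhancer, flanking TSS and Polycomb bins were fewer at 12 months in either diet. In the 50 kb on either side (500 bins for each gene), SD 12m and SD 3m differed in 43.2% of bins (41.8 to 44.6), compared to 31.1% over the flanks of all genes. CR 12m and SD 3m differed in 44% (42.6 to 45.4) compared to 31.1%, and the diets in 25.5% (24.3 to 26.7) compared to 21.8%. With 5 merged classes these shares were 25.7%, 28.7% and 13.5%, compared to 22.4%, 21.4% and 15.1% over the flanks of all genes. With all 8 states, the clock genes ranged from 20% (Per2) to 62% (Cry1) in SD 12m, from 23.8% (Nr1d2) to 69.2% (Arntl) in CR 12m, and from 5.8% (Nr1d1) to 68% (Arntl) between the diets. The medians over the clock genes were 47.5%, 46.8% and 21.3% for these comparisons, and over all genes 29.8%, 31% and 20%. In SD 3m, state 8 covered 22.4% of the clock gene flanks and 42.9% of the flanks of all genes. Flanks of genes with the TSS bin in state 1 or 2 were not compared, so whether they differ from the clock gene flanks was not tested.

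State 5 covered 14.2% of the flank bins in SD 3m, and 1.96% and 3.36% in SD 12m and CR 12m, compared to 7.9%, 2.62% and 2% over all flanks. State 2 covered 11.1%, 3.08% and 2.48%, compared to 3.64%, 1.33% and 1.14%. State 6 covered 12.4%, 3.5% and 4.16%, compared to 13.6%, 13.8% and 11.6%. Of the 556 flank bins in state 2 in SD 3m, 222 were around Per1 and 162 around Nr1d1, and 53 and 32 bins around these genes were in state 2 in SD 12m. State 3 was at 281 bins around Per1 and 436 bins around Nr1d1 in SD 12m, from 108 and 298 in SD 3m.

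Arntl was the clock gene whose flanks differed most between the diets (68% of bins), followed by Cry2 with 37.8% and Cry1 with 31.4%. In the 50 kb upstream, state 5 covered 68.8% of bins in SD 3m, and 6% and 37.6% in SD 12m and CR 12m. State 4 covered 0.4%, 46.4% and 3.6% there, and state 8 covered 0%, 4% and 40.4%. In the 50 kb downstream, state 4 covered 92% in SD 3m, and 73.6% and 12% in SD 12m and CR 12m, and state 8 covered 6.8%, 26.4% and 72.4%. State 8 was thus highest in CR 12m on both sides of the gene.

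Polycomb stretches of at least 5 kb near clock genes were followed from SD 3m, so their state 6 share could only stay or fall. Of all 621 flank bins of the clock genes in state 6 in SD 3m, 22.5% kept it in SD 12m and 27.2% kept it in CR 12m, compared to 59.3% and 53% of such bins in flanks outside genes. These pooled shares rest on few loci, with 162 of the 621 bins around Cry1, 146 around Clock and 120 around Per3. In SD 12m and CR 12m, state 6 held 32 and 25 bins around Cry1, none around Clock, and 122 around Per3 in each. Per2 and Nr1d1 had no flank bin in state 6 in any group. The longest stretch within the flanks in SD 3m was 27.4 kb of state 6 that began 5.81 kb upstream of Clock (chr5:76310601-76338000) and overlapped Nmu, Pdcl2 and 4930432L08Rik. None of it was in state 6 in SD 12m or CR 12m, and the TSS bins of Pdcl2 and 4930432L08Rik went from state 6 to state 8 in both. A stretch upstream of Cry1, 20.6 kb to the end of the flank (chr10:85214401-85235000), kept state 6 in 31.1% of its bins in SD 12m and in 0% in CR 12m. A stretch of 18.4 kb upstream of Per3 (chr4:151061201-151079600), overlapping Camta1, kept it in 77.2% and 76.1%. Downstream of Per3, a stretch of 5 kb (chr4:150975401-150980400), chosen because it was wholly in state 6 in SD 12m, went the other way, as SD 3m had 0% there and CR 12m had 40%.

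The diets parted at several stretches. The 9.4 kb upstream of Cry2 (chr2:92468601-92478000) had lost state 6 from every bin in SD 12m, while CR 12m kept it in 66% of bins. The 11.8 kb downstream of Cry1 (chr10:85087601-85099400) likewise had 0% in SD 12m but 42.4% in CR 12m. The stretch downstream of Per1 over Alox12b, 9.2 kb to the end of the flank, kept 43.5% and 63%, and the TSS bin of Alox12b was in state 6 in all 3 groups. Those near Nr1d2 (8.4 kb) and Dbp (5.8 kb) had no bin in state 6 at 12 months in either diet, and that near Arntl (5.8 kb) kept 3.45% in SD 12m and 0% in CR 12m.

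**Figure D4:**
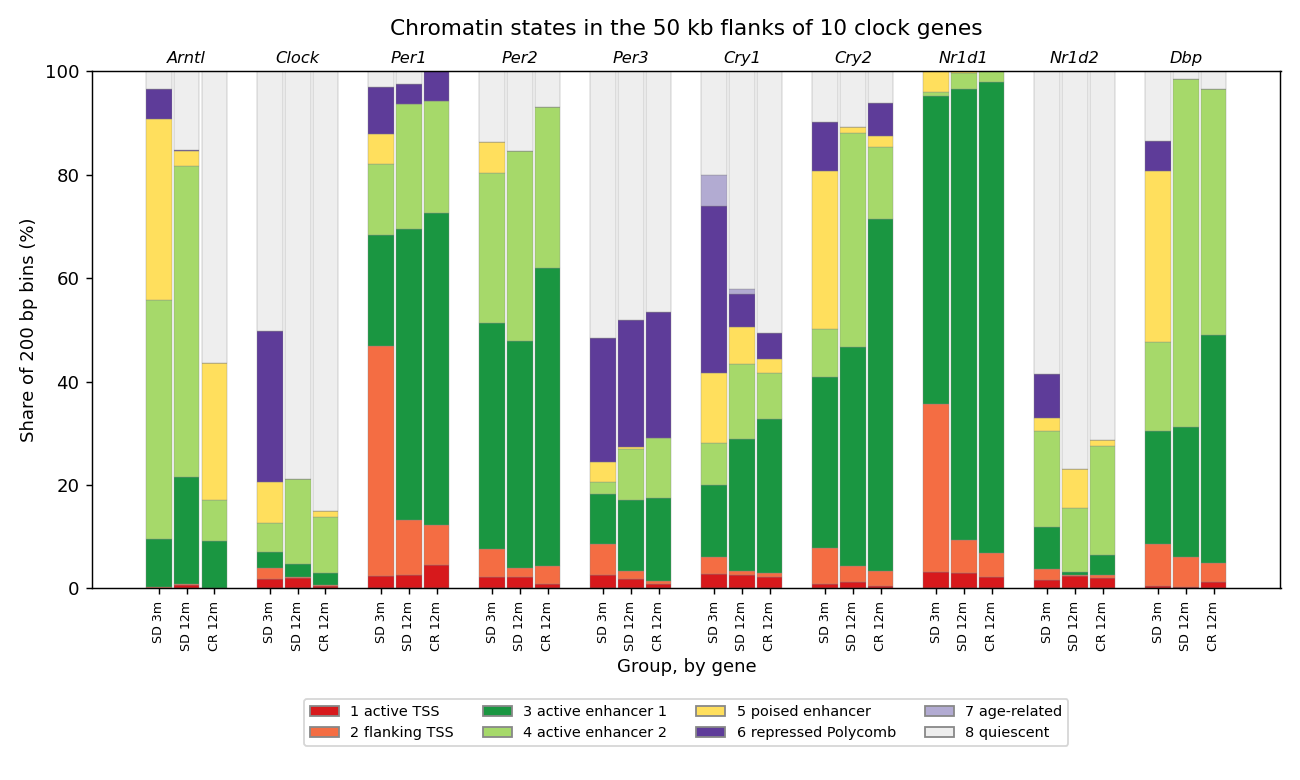
Share of the 500 bins in the 50 kb flanks of each clock gene (vertical axis, %) in the 8 chromatin states (colours), with a bar for each group. The state 8 part of Arntl is 17 bins in SD 3m, and 76 and 282 in SD 12m and CR 12m, and the state 2 part of Per1 and Nr1d1 is largest in SD 3m.

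Over the 63 labels of the window (21 bins in 3 groups), the median share of equal labels over the 45 pairs of clock genes was 49.2%. Per2 and Cry2 were the most alike with 84.1%, and the paralogs Nr1d1 and Nr1d2 were the least alike with 20.6%. Of all genes with a TSS over 5 kb away, the one most like Cry2 was Dgat2 with 96.8% of equal labels, followed by Akr1c19 for Per2 with 95.2% and Rnf11 for Per3 with 93.7%. Rab11a was most like Cry1 and Tra2a most like Nr1d2, both with 88.9%, Ubn2 most like Clock with 87.3%, and Gramd1a most like Arntl with 82.5%. Mpv17l2 for Per1 (87.3%) and Tnfrsf1a for Nr1d1 (85.7%) were tied with other genes, and for Dbp no gene reached 80%.

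Among 25 accessory clock genes (paralogs, nuclear receptors, kinases and ubiquitin ligases of the loop), the TSS bin had another state than in SD 3m at 11 in SD 12m and at 10 in CR 12m, and it differed between the diets at 12, beside 32.6%, 34.7% and 26.7% of all genes. Of the 16 in state 1 or 2 in SD 3m, 9 had left these states in SD 12m and 6 in CR 12m, beside 16.5% and 25.9% of all genes that started there. This list and the list of liver targets below were drawn up with earlier results of these data known. Rora, which activates Arntl through ROR elements, was in states 1, 7 and 4 in SD 3m, SD 12m and CR 12m. Tef, a relative of Dbp, and Ciart, a repressor of the activator complex, were in states 2, 3 and 3. Csnk1e, a kinase of PER proteins, and the deacetylase gene Sirt1 were in states 1, 4 and 4. Rorb was in state 8 in all groups.

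SD 12m alone had another label at 6 of the 25 accessory genes, beside 9.89% of all genes, and CR 12m alone at 5 of 25, beside 12% of all genes and 0 of 10 clock genes. Several are named here after their values were seen. Npas2, a paralog of Clock, was in states 5, 1 and 5, with the same label in SD 12m as Arntl. Bhlhe40 and Bhlhe41, repressors that bind E-boxes, and Timeless were in states 1, 4 and 1. Usp2 was in states 3, 4 and 3. With CR 12m apart, Nfil3, a repressor at D-boxes, was in states 4, 4 and 1, Ppargc1a, a metabolic coactivator, in states 8, 8 and 4, and Arntl2, a paralog of Arntl, in states 8, 8 and 5. Tipin was in states 1, 1 and 4, and Noct in states 2, 2 and 1.

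Among 20 genes known as liver targets of the clock, the TSS bin had another state than in SD 3m at 8 in SD 12m and at 8 in CR 12m, and it differed between the diets at 3, beside the same 32.6%, 34.7% and 26.7% of all genes. Of the 11 in state 1 or 2 in SD 3m, SD 12m lost 4 and CR 12m lost 5, beside 16.5% and 25.9%. Gys2, the liver glycogen synthase gene, and Thrsp, a lipogenic gene, were in states 1, 3 and 3. Insig2, a regulator of sterol synthesis, and Slc2a2, the liver glucose transporter gene, were in states 2, 3 and 3. Pck1, which controls gluconeogenesis, was in states 4, 1 and 1, and Avpr1a, a vasopressin receptor gene, in states 8, 1 and 1. Elovl3, a fatty acid elongase gene, was in states 5, 4 and 3.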

How the data were processed

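ChIP-seq of 4 histone marks was performed on livers of 3 groups (SD 3m, SD 12m and CR 12m), and SD 6m was not analysed here. Reads were aligned by the authors against mm10 using BWA 0.6.2-r126 and filtered in SAMtools 0.1.18. The authors then merged the libraries of each group and mark and used ChromHMM to binarize them and train a model with 8 states. The deposited values are state labels, 1 for each 200 bp bin, as the authors made them, with no signal, depth or replicate behind them. Every label thus contains the effect of merging, of the threshold for a mark and of smoothing by the model.

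Labels were assigned to groups by the group that each deposited segmentation names. Each gene took the position of its longest curated transcript in the RefSeq annotation of GRCm38.p6, whose chromosomes end at the last whole bin of the files. A bin belonged to a gene body if its centre lay in the gene, and windows were read in the direction of transcription. Shares are percentages of bins, computed with numpy 2.4.6 and pandas 2.3.3 in Python 3.11.15 and drawn with matplotlib 3.10.9. With 1 segmentation per group no test was possible and none was made. Values of the clock genes are given beside the same values over all genes, as a description. The functions were tested on a simulated SD 12m segmentation on chromosomes 10 and 11. With 3193 genes run, all 200 planted changes of a TSS bin were recovered. The planted labels carried no noise, so this checks the counting only.

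The clock genes and the accessory, output and marker lists were chosen with earlier results of these data known. The text names all 10 clock genes, the gene most like each of them (at least 80% of 63 labels equal, TSS over 5 kb away, ties settled by the state 3 share of the body), genes at described stretches, and listed genes that changed in both comparisons with SD 3m or were in states 6 to 8 in all groups. The alternatives concerned the TSS used, the width of windows and flanks, the weight of genes and the merging of states into 5 classes (TSS, enhancer, Polycomb, age-related and quiescent).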

Additional observations from a re-analysis of the deposited data

How the results depend on the processing

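With 5 merged classes of states, the TSS bin differed at 6, 5 and 1 clock genes in SD 12m and CR 12m against SD 3m and between the diets, as Dbp moved only between states 1 and 2. When a change counted only if the earlier state was absent from the 3 bins around the start, the first 2 counts were 4 and 2, since for the others the earlier state lay in a bin next to the start. The most upstream TSS gave values equal to the main ones in every digit, so it says little about dependence on the TSS used. Of the 55 values under alternatives, 27 stayed within the 95% binomial interval of the main value (Wilson, over bins) or within 1.5 times the main count, and 28 did not. The 27 include all values for the most upstream TSS. With merged classes, 30.5% of window bins had another state than in SD 3m for SD 12m and 30.5% for CR 12m, and 16.2% differed between the diets, which was 18% within 5 kb. The share of TSS states in SD 3m, SD 12m and CR 12m was 85.5%, 63.6% and 55.5% within 1 kb and 42.2%, 22.2% and 22.5% within 5 kb, where CR 12m was thus no longer below SD 12m. The enhancer share of the bodies without the start was 66.1% in SD 3m and 68.2% in SD 12m, and with equal weight for each gene SD 12m had 70.5% and CR 12m 69.2%. For changed body bins, merged classes gave 10.4% in SD 12m and 11.7% in CR 12m, and equal weights 31.4% and 31%. For changed flank bins, SD 12m had 37.7% with 100 kb flanks, 25.7% with merged classes and 51.8% without bins in state 8 in all 3 groups. CR 12m had 39.7%, 28.7% and 52.8%, and 42.3% without bins within 2 kb of any TSS.

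The limits are those of the files. Each group has 1 segmentation of merged libraries, so there is no value for the spread between mice and none without single replicates. The number of libraries per mark differed between groups, from 5 to 9, and its part in the labels was not tested. No paired analysis was possible because the libraries were merged before states were assigned. Intervals over bins describe counting only, since neighbouring bins depend on each other.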
